A study of Mus musculus with 11 samples.

Results

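The genes described here are *Hnf4a*, *Gata4*, *Gata6*, *Glis3*, *Wfs1*, *Klf11* and *Neurog3*, 7 genes linked to monogenic diabetes or to a missing pancreas, other than *Pdx1* and its closest islet partners. They were chosen by name, and 7 of 7 were found among the 19329 gene IDs of the expression table. RNA was measured by bulk sequencing of whole pancreatic islets from 14-week-old male mice, with 6 wild-type libraries and 5 from mice that carry the P33T change of PDX1 on both alleles (PDX1 P33T). The untreated, chow-fed mice came from a CRISPR-Cas9 line on the C57BL/6N background, in which proline 33 of PDX1 is replaced with threonine in every cell, so the change is not limited to beta cells, and the islets were cultured for 1 to 2 days before RNA was taken. A figure legend speaks of several mice for each replicate, so a library may be a pool, n counts libraries, and the p-values measure the spread between libraries. In bulk islets, fewer cells of a type and less RNA per cell cannot be told apart.

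Monogenic diabetes arises when a single gene needed to form or run the beta cell is damaged. The 7 genes sit at different steps. GATA4 and GATA6 are zinc finger transcription factors needed early, when the pancreas forms. NEUROG3 is the basic helix-loop-helix factor that turns pancreatic progenitors into endocrine cells and falls away as they mature. GLIS3 and KLF11 are zinc finger factors that act on the insulin gene, HNF4A is a nuclear receptor of the mature beta cell, and WFS1 (wolframin) is a membrane protein of the endoplasmic reticulum, whose loss causes Wolfram syndrome. PDX1 is a homeodomain factor that shares targets with several of them.

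The deposited values are FPKM, reads scaled to the length of the gene and to the total of the library, so levels of different genes can be set side by side. The library totals behind the FPKM, recovered from the steps that single reads make, lay between 19311937 and 37094286 in wild-type and between 23731684 and 36865206 in PDX1 P33T. Islet markers were high in all 5 PDX1 P33T libraries, with *Ins2* at 152890 ± 19886 FPKM (mean ± SD, n = 5), *Gcg* at 10618 ± 1336 FPKM and *Sst* at 5720 ± 775 FPKM. The summed level of the acinar markers was 22.6 to 104 FPKM, with the highest value in replicate 2, and that of the endothelial markers 63.2 to 143 FPKM. *Pdx1* itself stood at 79.0 ± 0.881 FPKM in PDX1 P33T, a level that does not check the genotype, since the change is a single base. Most wild-type values in the table stand on the rows of other genes, and a gene was tested only where its row was known from reads in a supplementary gene list or could be tied to it by length and level. For the 7 genes this gave 1 accepted row (*Neurog3*), 3 genes with a row that another gene fits as well (*Gata6*, *Glis3*, *Klf11*), whose values are given with that condition, 2 genes with no row near their level (*Hnf4a*, *Wfs1*), and *Gata4*, with too many. The levels are therefore given first for PDX1 P33T, where each value stands on the row of its own gene.

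*Wfs1* was by far the most abundant of the 7 genes in PDX1 P33T islets. On chromosome 5, with 3787 exon bases, it was measured at 45.1, 32.5, 44.4, 44.0 and 44.1 FPKM in replicates 1 to 5, from 2921 to 6156 reads. The mean was 42.0 ± 5.34 FPKM (SD, n = 5), above 95.5% of the 18963 gene IDs with a value in PDX1 P33T. Replicate 2 stood apart below the other libraries, which spanned only 44.0 to 45.1 FPKM.

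*Hnf4a*, on chromosome 2, came next. It had 6.12, 4.21, 5.63, 6.10 and 5.64 FPKM in replicates 1 to 5 (482 to 1003 reads), with a mean of 5.54 ± 0.781 FPKM. As for *Wfs1*, replicate 2 was the lowest, and the other 4 libraries lay between 5.63 and 6.12 FPKM. The gene has 2 known starts, an upstream one used in islets and a downstream one used in liver. Its FPKM count reads from both, so the values above do not say which start was used. The sequences around the starts are shown because the upstream one is a textbook meeting point of PDX1 and HNF4A. They come from RefSeq (GRCm38.p6, plus strand, 250 bases before to 50 bases after the start), at chr2:163506607-163506906 and chr2:163546905-163547204, 40298 bases apart. The submitters' processing notes name another build, GRCm39. Capitals mark TAAT on either strand, the core letters that homeodomain proteins such as PDX1 bind.
Hnf4a upstream start: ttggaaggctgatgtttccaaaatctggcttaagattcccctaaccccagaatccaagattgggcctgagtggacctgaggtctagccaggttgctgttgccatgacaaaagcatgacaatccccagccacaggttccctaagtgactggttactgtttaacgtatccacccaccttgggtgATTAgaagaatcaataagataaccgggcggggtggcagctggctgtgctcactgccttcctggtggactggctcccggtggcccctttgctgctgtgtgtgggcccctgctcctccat
Hnf4a downstream start: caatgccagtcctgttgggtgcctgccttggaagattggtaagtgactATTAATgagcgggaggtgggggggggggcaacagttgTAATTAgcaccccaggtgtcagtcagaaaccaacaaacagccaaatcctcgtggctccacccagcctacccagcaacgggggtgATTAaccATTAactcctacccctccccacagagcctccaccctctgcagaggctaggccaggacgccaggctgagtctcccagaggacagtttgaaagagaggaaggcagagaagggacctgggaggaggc
The upstream window holds 1 match and the downstream window 6, some of them overlapping. TAAT on either strand occurs in 58.0% of the 32851 RefSeq windows of this length, and 6 or more matches in 4.05%. Windows were held for 5 of the 7 genes, and those of *Wfs1*, *Neurog3*, *Klf11* and *Glis3* hold 0 matches. A match is a run of letters and not a measured binding site.

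*Klf11*, on chromosome 12, had nearly the same value in every PDX1 P33T library, 4.50, 4.55, 4.47, 4.37 and 4.48 FPKM, with a mean of 4.47 ± 0.0670 FPKM. Its coefficient of variation was 1.5%, below the 4.28% that counting 467 to 716 reads per library would give on average. Of the 2903 gene IDs within 1.5-fold of its level, whose median coefficient of variation was 12.6%, 1 varied less. *Glis3*, on chromosome 19, varied more, with 3.66, 3.08, 3.57, 3.31 and 3.98 FPKM in replicates 1 to 5 and a mean of 3.52 ± 0.342 FPKM. Its 8842 exon bases gathered 646 to 1296 reads, and its range did not reach that of *Klf11*.

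*Neurog3*, which is known for its brief expression in endocrine progenitors, was detected in all 5 libraries of adult PDX1 P33T islets. It had 3.38, 2.54, 2.85, 3.13 and 2.74 FPKM in replicates 1 to 5, from 101 to 169 reads on 1674 exon bases of chromosome 10. The mean was 2.93 ± 0.329 FPKM, above 59.3% of the gene IDs with a value. In the GENCODE vM21 annotation, 273 of these bases (16.3%) are also exon of *Fam241b* on the other strand, which had 7.66 ± 1.66 FPKM. Whether the libraries kept the strand is not stated, so reads from the shared stretch cannot be assigned with certainty.

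The GATA factors were the lowest of the 7 genes and differed widely. *Gata6*, on chromosome 18, had 1.51, 1.42, 1.64, 1.56 and 1.55 FPKM, with a mean of 1.54 ± 0.0801 FPKM from 220 to 373 reads. *Gata4*, on chromosome 14, had 0.0953, 0.0863, 0.127, 0.0208 and 0.0973 FPKM, with a mean of 0.0854 ± 0.0392 FPKM, so *Gata6* was 18.0 times higher. At the annotated length of 3904 bases these *Gata4* values are 10, 8, 16, 2 and 14 reads. They would be fewer still, 5, 4, 8, 1 and 7 reads, at 1952 bases, the shortest length at which they are whole reads, and at such counts no difference between libraries can be read. For the other 6 genes, the length recovered from the FPKM equals the annotated exon length. Of their relatives, *Gata2* stood at 0.455 ± 0.0774 FPKM and *Zfpm1*, a GATA cofactor, at 2.65 ± 0.787 FPKM, both picked after their values were seen.

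**Figure D1:**
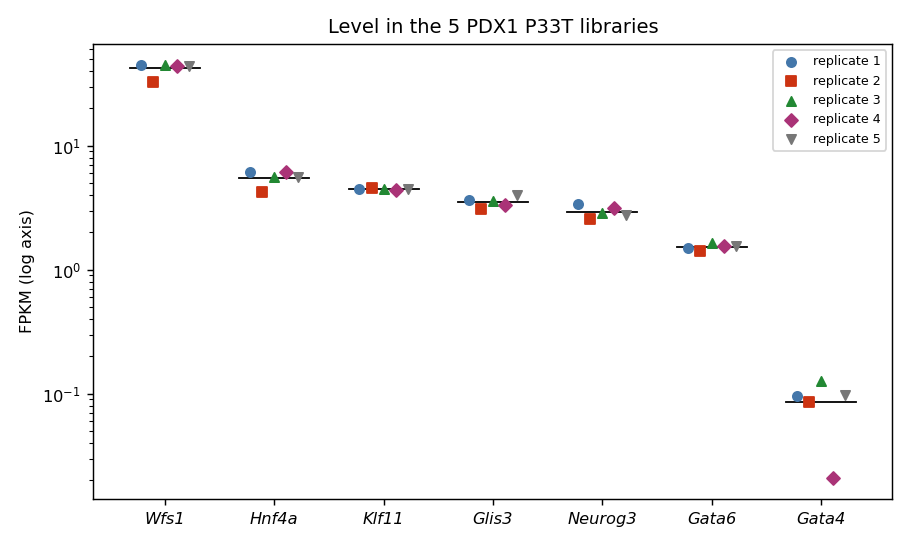
FPKM of the 7 genes (log axis) in the 5 PDX1 P33T libraries, each library with its own symbol and the black bar at the mean. *Wfs1* (mean 42.0 FPKM) and *Gata4* (0.0854 FPKM) mark the ends of the range, and replicate 2 (red squares) is the lowest library for 5 of the 7 genes.

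In order of the means, *Wfs1* was followed by *Hnf4a*, *Klf11*, *Glis3*, *Neurog3*, *Gata6* and *Gata4*. Of the 6 pairs of neighbours, 2 overlapped between libraries. *Hnf4a* was above *Klf11* in 4 of 5 libraries, the exception being replicate 2, and the ratio of their means was 1.24. *Glis3* was above *Neurog3* in 5 of 5 libraries with a ratio of 1.20, although their ranges overlapped. The ranges of the other 4 pairs were apart, with ratios of the means of 7.59 for *Wfs1* over *Hnf4a*, 1.27 for *Klf11* over *Glis3*, 1.90 for *Neurog3* over *Gata6* and 18.0 for *Gata6* over *Gata4*.

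The 7 genes were then set among 40 other genes of monogenic diabetes, of which 36 had a value in PDX1 P33T. *Wfs1* lay close to *Kcnj11*, a subunit of the potassium channel that couples glucose to insulin release, at 42.5 ± 4.81 FPKM, and to the transcription factor gene *Nkx2-2* at 38.4 ± 3.51 FPKM. *Hnf4a* lay between *Eif2ak3*, the gene of the stress kinase PERK, at 6.28 ± 0.412 FPKM and *Cnot1* at 4.90 ± 0.435 FPKM. *Klf11* and *Glis3* lay on either side of *Appl1*, an adaptor in insulin signalling, at 3.59 ± 0.435 FPKM. *Neurog3* lay just below *Lrba*, at 3.18 ± 0.284 FPKM. *Gata6* was just below the insulin receptor gene *Insr* at 2.13 ± 0.380 FPKM and above *Trmt10a* at 0.544 ± 0.136 FPKM, and 34 of the 36 were above *Gata4*. Thus 6 of the 7 genes were below 25 or more of the 36, and *Wfs1* was below 12.

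**Figure D2:**
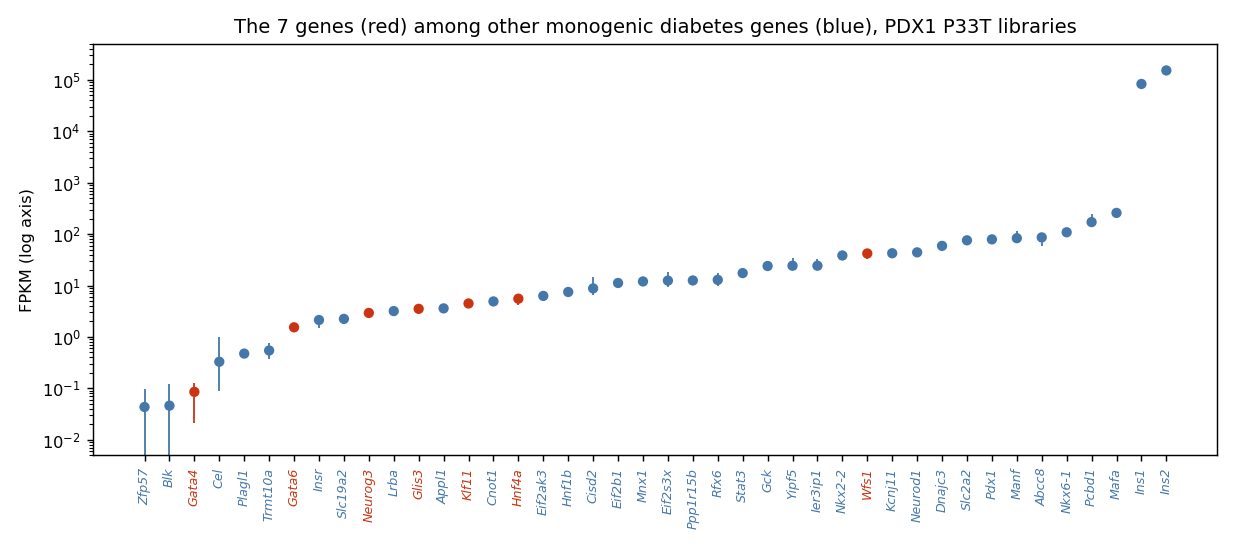
Mean FPKM (log axis) in PDX1 P33T of the 7 genes (red) and 35 of the 36 other monogenic diabetes genes (blue), ordered by level, with lines from the lowest to the highest of the 5 libraries. Only *Wfs1* among the 7 lies in the upper part of the order, near *Kcnj11* and *Nkx2-2*.

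Within PDX1 P33T, replicate 2 was the lowest library for *Wfs1*, *Hnf4a*, *Glis3*, *Neurog3* and *Gata6*, and for *Wfs1* and *Hnf4a* it lay far from the other 4. These are 5 of the 6 genes whose mean reached 1 FPKM. Of the 11190 gene IDs at that level, replicate 2 was the lowest library for 36.9% and the highest for 41.4%, and of the 31 other monogenic diabetes genes it was the lowest for 10 and the highest for 13. *Hnf4a* was at 0.717 times and *Wfs1* at 0.732 times the mean of the other libraries. Ratios as low or lower were seen for 10.3% and 12.1% of those gene IDs, whose median ratio was 1.01. *Neurog3* was at 0.841 times, *Glis3* at 0.849 times and *Gata6* at 0.909 times, while *Klf11* (1.02 times) and *Gata4* (1.01 times) were at the level of the others. Without replicate 2, the mean of *Wfs1* was 44.4 ± 0.476 FPKM and that of *Hnf4a* 5.87 ± 0.273 FPKM (n = 4). In the same library the acinar markers summed to 104 FPKM, against 22.6 to 34.4 FPKM in the others, the beta cell markers to 334857 FPKM, against 236737 to 291083 FPKM, and the endothelial markers to 63.2 FPKM, against 103 to 143 FPKM. The beta cell sum rests mainly on *Ins1*, *Ins2* and *Iapp*. Of its 8 markers, 5 were highest and 2 lowest in replicate 2. The 2 lowest were *Mafa*, at 203 FPKM against 266 to 287 FPKM, and *Nkx6-1*, at 87.2 FPKM against 108 to 121 FPKM. The part of these cell types in the values of the 7 genes was not tested.

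**Figure D3:**
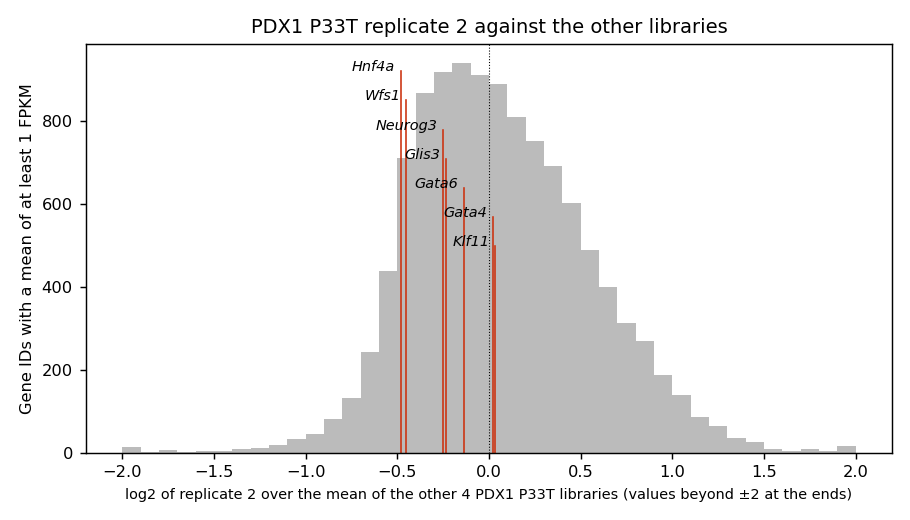
Histogram, over 11190 gene IDs with a mean of at least 1 FPKM, of the log2 ratio of PDX1 P33T replicate 2 to the mean of the other 4 libraries, with a red line at each of the 7 genes. *Hnf4a* (0.717 times) and *Wfs1* (0.732 times) lie on the left flank, and *Klf11* and *Gata4* lie near 0.

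The comparison of the genotypes asked whether the P33T change goes with altered RNA of these genes. It could be made for *Neurog3* alone. Its wild-type libraries had 1.46, 2.40, 3.62, 2.42, 3.03 and 3.29 FPKM, from 57 to 154 reads, with a mean of 2.70 ± 0.776 FPKM (SD, n = 6). The 5 PDX1 P33T libraries, at 2.54 to 3.38 FPKM, lay inside this range, and the wild-type libraries were the more spread, with replicate 1 the lowest. On log2(FPKM + 0.1) the fold change was 0.16 ± 0.19 (SE), with a 95% interval from 0.835-fold to 1.49-fold, and limma gave an adjusted p = 1. The two-sided exact permutation test over the 462 splits gave p = 0.554, where the smallest p possible is 0.0043. Of the 6687 genes in the limma fit, 0.12% were called in either direction, 4 higher and 4 lower. A call needed a 1.5-fold difference with an adjusted p no higher than 0.05, while 157 were higher and 344 lower at an unadjusted p under 0.05 and that fold. Without wild-type replicate 1, the log2 fold change of *Neurog3* was -0.00029. The row was accepted because its level is 1.08-fold from that of PDX1 P33T, while the next row of the same length is 5.07-fold away. It would not be accepted under a rule that bars a second row within 16-fold, and the matching cannot find a gene that changed more than 4-fold. Since closeness in level chose the row, a small difference was favoured in advance. The p-values and the interval therefore hold only for this row and cannot show that *Neurog3* was unchanged.

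**Figure D4:**
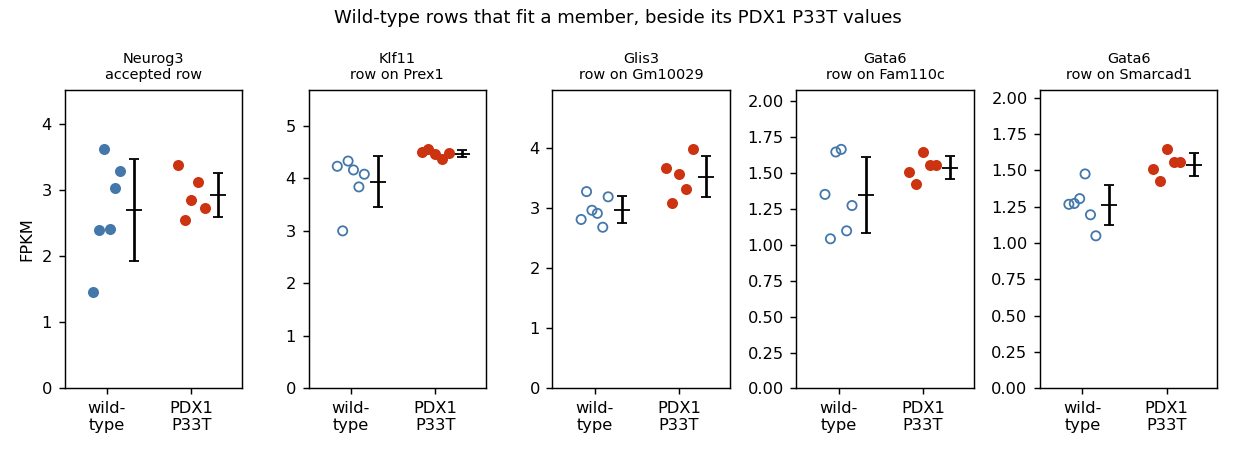
FPKM in wild-type (blue, n = 6) and PDX1 P33T libraries (red, n = 5), with mean and SD beside the points. Filled wild-type points are the accepted row of *Neurog3*, and open points are rows that another gene of the same length fits as well, named after the gene on whose row they stand. In the accepted row the PDX1 P33T values, 2.54 to 3.38 FPKM, lie within the wild-type range.

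For *Klf11*, *Glis3* and *Gata6* a wild-type row of the right length and a level within 2-fold exists, but a second gene of the same length fits it too. The following values therefore hold only if the row belongs to the gene named. These rows were also picked for a level near that of PDX1 P33T, which favours small differences. The row that may be that of *Klf11* had 4.23, 3.00, 4.33, 4.16, 3.84 and 4.08 FPKM in wild-type, with a mean of 3.94 ± 0.490 FPKM. All 5 PDX1 P33T values of *Klf11*, from 4.37 FPKM upward, are above these, and the ratio of the means would be 1.14. Groups apart in this direction were found for 0.279% of the 5015 genes placed by length and level. The limma log2 fold change would be 0.19 ± 0.10, with an adjusted p = 0.635 and an interval from 0.984-fold to 1.32-fold. The row also fits *Rrp12*, a gene of ribosome assembly with 3.15 ± 0.582 FPKM in PDX1 P33T, which would then be at 0.799 times wild-type. A second row of this length had 1.55, 1.15, 1.04, 1.06, 0.963 and 1.02 FPKM, with a mean of 1.13 ± 0.216 FPKM, and with it *Klf11* would be 3.96 times wild-type. That row lies closer to *Esrp2*, which had 0.972 ± 0.180 FPKM in PDX1 P33T.

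The row that may be that of *Glis3* had 2.81, 3.27, 2.96, 2.91, 2.68 and 3.19 FPKM, with a mean of 2.97 ± 0.224 FPKM. Of the 5 PDX1 P33T values, 4 are above every one of these, and the log2 fold change would be 0.23 ± 0.09 with an adjusted p = 0.481 by limma. The same row fits *Ube2f*, which encodes an enzyme of neddylation, at 3.11 ± 0.292 FPKM in PDX1 P33T. For *Gata6*, 2 rows and 2 genes share a length. One row had 1.35, 1.04, 1.65, 1.67, 1.10 and 1.27 FPKM (mean 1.35 ± 0.265) and the other 1.27, 1.27, 1.30, 1.47, 1.19 and 1.05 FPKM (mean 1.26 ± 0.139). The log2 fold change of *Gata6* would be 0.20 ± 0.13 with the first (adjusted p = 0.867) and 0.27 ± 0.10 with the second (adjusted p = 0.481), by limma. The other gene of that length, *Diexf*, had 1.15 ± 0.0661 FPKM in PDX1 P33T. Both rows overlapped the PDX1 P33T values of *Gata6*, with 0 and 4 of the 5 above all wild-type values. How often tested genes have 4 of 5 values above all wild-type values was not counted. The 4 of 5 of *Glis3* and *Gata6* are therefore descriptions only. The median log2 fold change of the 5015 genes placed by length and level was 0.05, and 31.3% of them were at 0.15 or more.

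For *Wfs1* and *Hnf4a* no wild-type row of the recovered length lay within 4-fold. The only row with the length of *Wfs1* was 121-fold lower, and none had that of *Hnf4a*. For *Gata4*, 9 wild-type rows of 12 to 128 reads were within 4-fold and could be read at its annotated length, too many and too shallow to choose from. Their genotype difference was not analysed here.

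The genes around the 7 members were read from 6 lists written for each neighbourhood. In each, 0 tested genes were called by limma, and the median log2 fold change of all genes tested was -0.05. That median was -0.32 for the 1672 genes placed by supplementary list reads and 0.05 for the 5015 placed by length and level. In each of the 6 lists most tested genes were placed by length and level. Of the 6687, 26.1% had an unadjusted p under 0.05, 824 higher (12.3%) and 924 lower (13.8%). The share was 87.7% of the 1672 genes placed by supplementary list reads, a list held here only in part, and 5.62% of the 5015 placed by length and level. The 26.1% thus depends on which genes could be placed and is not an estimate for all gene IDs. Counts at an unadjusted p are therefore given with how their genes were placed. Around *Hnf4a*, 6 of 25 genes of the hepatocyte nuclear factor circuit could be tested, with a median of 0.08, 3 above and 3 below 0. At an unadjusted p under 0.05, 2 were higher and 0 lower, *Cltrn*, placed by the list, and *Pklr*, placed by length and level. The median was 0.05 to 0.13 with 1 library left out. *Cltrn*, the gene of collectrin, had 330 ± 24.9 FPKM in wild-type and 493 ± 164 FPKM in PDX1 P33T, with a log2 fold change of 0.53 ± 0.17 and an adjusted p = 0.482 by limma. Replicate 2 had 783 FPKM and the other 4 libraries 393 to 457 FPKM, and without it the log2 fold change was 0.35. *Pklr*, a pyruvate kinase gene, had 2.61 ± 0.699 and 3.40 ± 0.300 FPKM (log2 fold change 0.41 ± 0.15), and *Nr2f2*, a nuclear receptor gene, had 0.252 ± 0.178 and 0.159 ± 0.0507 FPKM. Among the untested genes of this list, *Foxa2* stood at 35.0 ± 2.94 FPKM and *Hnf4g*, the closest relative of *Hnf4a*, at 0.609 ± 0.188 FPKM in PDX1 P33T, both picked after their values were seen.

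In the endocrine cascade around *Neurog3*, 13 of 25 genes were tested and 0 were called by limma, with a median of 0.08, which was 0.04 without PDX1 P33T replicate 2 and 0.03 without wild-type replicate 3. At an unadjusted p under 0.05, 2 were higher and 3 lower, and 5 of these 5 were placed by the list, against 0 of the 8 placed by length and level. *Myt1* and *Rfx6* were among the 3 with the smallest p. *Myt1*, which acts with NEUROG3 in endocrine differentiation, had 2.64 ± 0.203 FPKM in wild-type and 3.26 ± 0.468 FPKM in PDX1 P33T (log2 fold change 0.29 ± 0.10, limma adjusted p = 0.482). *Rfx6*, a target of NEUROG3 and itself a gene of neonatal diabetes, had 9.77 ± 1.84 and 12.9 ± 2.89 FPKM (log2 fold change 0.39 ± 0.16, limma adjusted p = 0.496), and its highest value, 17.1 FPKM, was in PDX1 P33T replicate 2, without which the log2 fold change was 0.28. The 3 genes whose values followed *Neurog3* most closely over the 11 libraries, of 5044 compared, were *Snhg12* (Pearson's r = 0.869), *Gm6723* (r = 0.852) and *Peg10* (r = 0.838). Within the 5 PDX1 P33T libraries r was 0.576, 0.862 and -0.289. Of the 13 tested genes of the cascade, r is given for *Rfx6* (r = -0.490) and *Pax6* (r = -0.688) alone. Both ran against *Neurog3* over the 11 libraries and were picked after their values were seen. Their r within a genotype was not worked out, so the other tested genes of the cascade are not covered. The libraries share their preparation and scaling, and these values are descriptions.

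Around *Wfs1*, 16 of 27 genes of the endoplasmic reticulum were tested and 0 were called by limma, 0 of them also at an unadjusted p under 0.05. The median was 0.08, and 0.04 without PDX1 P33T replicate 2. Leaving out wild-type replicate 3 gave 0.0047, and leaving out wild-type replicate 1 gave 0.13. *Ddit3*, the gene of the stress factor CHOP, had 40.5 ± 10.3 FPKM in wild-type and 30.4 ± 5.27 FPKM in PDX1 P33T (log2 fold change -0.39 ± 0.19, limma adjusted p = 0.588). *Syvn1*, a ubiquitin ligase gene of protein degradation at the reticulum, had 13.0 ± 0.984 and 11.5 ± 1.27 FPKM, and the calcium channel gene *Itpr1* had 2.57 ± 0.270 and 2.94 ± 0.283 FPKM. *Cisd2*, the second gene of Wolfram syndrome, had 6.88 ± 0.528 FPKM in wild-type and 8.79 ± 3.22 FPKM in PDX1 P33T, with a log2 fold change of 0.29 ± 0.17. Replicate 2 had 14.4 FPKM and the other 4 libraries 6.48 to 8.47 FPKM, and without it the mean was 7.40 ± 0.954 FPKM and the log2 fold change 0.10.

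Among relatives and partners of *Glis3* and *Klf11*, 11 of 26 genes were tested, with a median of -0.28, 3 above and 8 below 0. The median was -0.19 without PDX1 P33T replicate 2. By limma 0 were called, with 0 higher and 4 lower at an unadjusted p under 0.05, 3 of the 4 placed by the list. *Klf4* had 1.80 ± 0.601 FPKM in wild-type and 1.11 ± 0.239 FPKM in PDX1 P33T (log2 fold change -0.61 ± 0.23, limma adjusted p = 0.482). *Klf13* had 4.54 ± 0.444 and 3.74 ± 0.491 FPKM, and *Smad3*, which carries TGF-beta signals, had 1.12 ± 0.315 and 0.764 ± 0.203 FPKM. In PDX1 P33T replicate 2, *Klf13* had 2.91 FPKM, against 3.80 to 4.18 FPKM in the others. *Smad3* had 0.449 FPKM there, against 0.716 to 0.996 FPKM. Without that library the log2 fold change went from -0.28 to -0.19 for *Klf13*, -0.50 to -0.34 for *Smad3* and -0.61 to -0.56 for *Klf4*. Around the GATA factors 3 of 22 genes were tested and 0 were called by limma, 0 also at an unadjusted p under 0.05, with a median of -0.42, which was -0.16 without wild-type replicate 3. *Gata2* had 0.864 ± 0.656 and 0.455 ± 0.0774 FPKM, *Sox17* 1.06 ± 0.683 and 0.698 ± 0.210 FPKM, and *Nr5a2* 0.196 ± 0.172 and 0.156 ± 0.0528 FPKM, in wild-type and PDX1 P33T. *Klf4*, *Gata2* and *Sox17* are also known from endothelial cells. Of the 6 endothelial markers, 4 were tested, with a median log2 fold change of -0.63, 4 of 4 below 0 and 0 called, and -0.36 without wild-type replicate 3. Markers of some other cells of the tissue were as low, with 0 above 0 and 0 called. Medians were -0.61 for 5 stromal markers (-0.08 without wild-type replicate 2), -0.65 for 3 macrophage markers and -1.01 for 2 Schwann cell markers. The 3 macrophage and 2 Schwann cell markers were all placed by the supplementary list, and the median of all 1672 genes so placed was -0.32. The mesothelial, ductal, lymphocyte and acinar lists had 1 tested marker each, at 0.95, 0.14, -0.31 and -0.44, with 0 called. The delta and PP cell lists also had 1 each, *Sst* at -0.32 and *Ppy* at -0.69. For 6 beta cell markers the median was 0.19, with 5 above and 1 below 0, and 0.11 without PDX1 P33T replicate 2. For 2 alpha cell markers it was -0.08, with 1 above and 1 below 0. In these endocrine lists 0 were called. In PDX1 P33T the stromal markers summed to 4.86 to 9.42 FPKM, the macrophage markers to 112 to 128 FPKM and the Schwann cell markers to 2.73 to 3.77 FPKM. The part of these cells in the values was not tested.

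Of the other monogenic diabetes genes, 18 of 40 were tested and 0 were called by limma, with 2 higher and 0 lower at an unadjusted p under 0.05, *Rfx6*, placed by the list, and *Slc19a2*, placed by length and level. Their median log2 fold change was 0.14, with 12 above and 6 below 0, and 0.06 without PDX1 P33T replicate 2. The smallest p-values were those of *Rfx6*, described above, of the thiamine transporter gene *Slc19a2*, with 1.80 ± 0.397 FPKM in wild-type and 2.24 ± 0.247 FPKM in PDX1 P33T (log2 fold change 0.32 ± 0.14, limma adjusted p = 0.539), and of *Abcc8*, the partner of *Kcnj11* in the potassium channel, with 101 ± 8.45 and 86.4 ± 15.7 FPKM (log2 fold change -0.24 ± 0.13, limma adjusted p = 0.647). As for *Wfs1* and *Hnf4a*, the lowest *Abcc8* value in PDX1 P33T, 59.6 FPKM, was in replicate 2, without which its log2 fold change was -0.12.

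**Figure D5:**
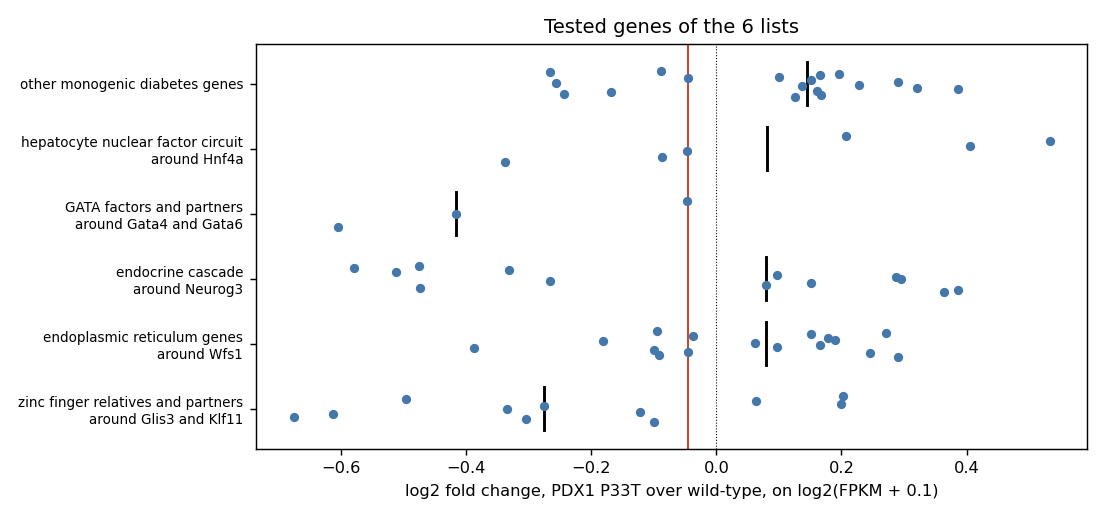
Log2 fold change, PDX1 P33T over wild-type, of the tested genes of the 6 lists (blue points), with the median of each list (black bar) and of all 6687 genes tested (red line, -0.05). Points of the lists around *Glis3* and *Klf11* and around the GATA factors lie mostly below 0, and 0 of the points shown were called. The median of all genes tested was -0.32 for those placed by the supplementary list and 0.05 for those placed by length and level.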

How the data were processed

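RNA of whole islets was sequenced in 6 wild-type and 5 PDX1 P33T libraries. The authors deposited FPKM per library. The submitters' processing notes name fastp 0.23.1, HISAT2 2.0.5 and featureCounts 1.5.0-p3, and per the methods genes needed a value in 80% of the replicates of one genotype. The annotation release is not given in the sources used here. Of 25399 lines, 6070 were blank.

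Most wild-type values stand on rows of other genes. For 1672 genes the row was known from wild-type reads in the supplementary gene list, held here only in part and used for this only. Another 5015 were matched by gene length, the shortest at which all FPKM are whole reads (to 2e-06 of a read plus 1e-08 of its count; equal to the listed length for 98.3% of 1672 genes), and by level. A match needed group means within 4-fold, no further candidate of equal length within 4-fold, and at least 100 reads in each genotype. Of 643 matches that could be checked, 642 were right and 1 took the row of another gene. In simulated rows 5 of 5277 matches were wrong, and of 100 genes changed 2-fold and 8-fold, 38 and 0 were matched. These limits were chosen after values were seen, and the 4-fold limit on further candidates with *Neurog3* in view, since a 16-fold limit leaves that gene with no row.

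The 6687 genes were fitted with limma 3.58.1 (R 4.3.3, trend and robust options) on log2(FPKM + 0.1), without covariates, a scale that understates the fold of low genes. The fit omits 39 listed genes whose PDX1 P33T values are all 0. Benjamini-Hochberg adjustment ran over the 19329 gene IDs, and calls needed a 1.5-fold difference with an adjusted p no higher than 0.05. A count test was not run, since the deposited files hold no counts. On simulated counts for these 6687 genes, 93.5% of 200 genes changed by a log2 of 1 were found at a dispersion of 0.03 and 28.5% at 0.1. Libraries of one genotype differed beyond counting noise (chi-square per gene of at least 5.72). *Neurog3* was also compared by an exact permutation test. Python 3.11.15 was used with pandas 2.3.3, numpy 2.4.6 and matplotlib 3.10.9.

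The 7 genes and the lists were chosen with earlier results of these data known. Named genes are the 7, the tested genes of each list that were called or, with none called, the 3 with the smallest p, the list genes next to each of the 7 in level, and the 3 genes most like *Neurog3*. Of the genes named by this rule, 2 are not reported here. Read counts and FPKM of few reads carry counting error in addition to the spread given. Alternatives tried were other pseudocounts, a filter of 1 FPKM, rescaled libraries, each library left out, blocks by replicate number, narrower row matching, other adjustment and other limma options.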

Additional observations from a re-analysis of the deposited data

Results flagged for a closer look

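Of 24 groups of values examined for a library far from the rest, 5 held one. Chance flags about 1 in 20 of independent groups. Most groups examined here share the same 5 PDX1 P33T libraries, so their flags are not separate results and cannot be set against that rate. In PDX1 P33T, replicate 2 was apart for *Wfs1*, at 32.5 FPKM against 44.0 to 45.1 FPKM, and for *Hnf4a*, at 4.21 FPKM against 5.63 to 6.12 FPKM. The same library was apart for the summed acinar markers, at 104 FPKM against 22.6 to 34.4 FPKM, and for the summed lymphocyte markers, at 15.9 FPKM against 8.67 to 10.006 FPKM. In wild-type, replicate 2 was apart in the row shared by *Klf11* and *Rrp12*, at 3.00 FPKM against 3.84 to 4.33 FPKM.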

How the results depend on the processing

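The means of the 7 genes in PDX1 P33T moved by less than 1 SD without any 1 library, from 41.3 to 44.4 FPKM for *Wfs1*, 5.39 to 5.87 for *Hnf4a*, 4.45 to 4.50 for *Klf11*, 3.40 to 3.63 for *Glis3*, 2.82 to 3.02 for *Neurog3*, 1.51 to 1.57 for *Gata6* and 0.0749 to 0.101 for *Gata4*. The log2 fold change of *Neurog3* ranged from -0.00029, without wild-type replicate 1, to 0.25 with 1 library left out and was 0.11 to 0.25 otherwise, with an adjusted p of 0.52 to 1. Counts of called genes were small under every setting. With 1 library left out they were 2 to 4 higher and 2 to 5 lower, and leaving out PDX1 P33T replicate 1, 3 or 5 gave 2 higher. Genes of at least 1 FPKM gave 2 higher and 2 lower, rows within 2-fold 2 and 1, a log2 fold change of at least 1.5 gave 1 and 2, and the genes of the supplementary list alone, chosen after seeing the data, 2 and 1. A pseudocount of 1, rescaled libraries and limma without its trend and robust options each gave 2 lower. The replicate block by titles gave 1 higher and 1 lower and that by library names 2 and 2; without the block, the libraries of the first gave 4 higher and 2 lower. Same-numbered libraries did not deviate together (r of -0.571 to 0.136 by titles, -0.571 to 0.115 by library names, 1 of 5 best with its own number in each), so the numbers were not taken as pairs. Of the 6 lists, 0 genes were called in any of the settings. Their medians kept their sign with rescaled libraries, but those around *Hnf4a*, *Neurog3* and *Wfs1* reached -0.05, -0.47 and -0.39 under other settings. The cause of these shifts was not tested. *Gata4* is limited by depth.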
